A study of Mus musculus with 24 samples.

Results

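Short interspersed nuclear elements (SINEs) were followed by family in RNA-seq counts of mouse embryonic fibroblasts (MEFs) that lack between 0 and 6 of the SET-domain H3K9 methyltransferases. Every repeat element of the count table whose class is exactly SINE was taken, which gave 38 of 1445 repeat elements, beside 47937 gene entries. No measured value entered that choice. The elements fall into 10 families. Alu, the name the annotation gives to the mouse B1 elements and their relatives, has 15 elements and 39.1% of all SINE counts. B2 has 5 elements and 33.6% of the counts, B4 has 4 elements and 23.7%, ID has 4 elements and 2.03%, and MIR has 5 elements and 1.57%. The other 5 families have 1 element each, namely AmnSINE1, AmnSINE2, LFSINE_Vert, MamSINE1 and LmeSINE1c. LmeSINE1c had no count in any library, so 37 SINE elements were tested, and 1 further element of the uncertain class "SINE?" was left out.

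SINEs are short retrotransposons that encode no protein and depend on the LINE-1 machinery to copy themselves. B1 elements descend from 7SL RNA, the RNA of the signal recognition particle, whereas B2, ID and MIR elements descend from tRNAs and B4 elements combine an ID-like and a B1-like part. Their own promoter is read by RNA polymerase III, but many copies lie in introns and untranslated regions, so reads from them can also come from RNA polymerase II transcripts of the surrounding genes. H3K9 methylation is a mark of repressed chromatin, and Suv39h1, Suv39h2, Setdb1 (Eset1), Setdb2 (Eset2), G9a (Ehmt2) and Glp (Ehmt1) are the methyltransferases at issue.

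The 24 libraries are 3 samples in each of 8 conditions, all from MEFs with floxed Eset1 alleles and an inducible CreERT2. WT is the conditional line (clone E25) without 4-hydroxytamoxifen (4-OHT), and E1 is the same line after 1 µM 4-OHT, which removes floxed exons of Eset1. E1 S1S2 (clone B1) carries in addition frameshift mutations in Suv39h1 and Suv39h2, and 6KO1 (clone B1A6), derived from it, also in Eset2, G9a and Glp, both after 4-OHT. In the second series, E2 is an Eset2-mutant clone (A4) without 4-OHT and E1E2 is the same clone with it. E1E2 G9Gl (clone E2) adds G9a and Glp mutations, and 6KO2 (clone E2F4) adds Suv39h1 and Suv39h2 mutations, both after 4-OHT. The treatment field of the labels is the same for every sample, and the titles mark which libraries are uninduced controls. Each genotype is 1 clone, so the genotype and the history of its clone cannot be told apart, and only E1 against WT and E1E2 against E2 compare the same clone. The p-values rest on the spread between samples of the same condition, which edgeR pools over all 8 conditions. They do not measure any spread between clones.

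Total counts were 24736800 to 37419100 per library, of which 916676 to 1458430 lay on SINEs. SINEs took 2.79% to 4.40% of all counts and 17.1% to 31.2% of the repeat counts. Levels are given as CPM, counts per 1000000 gene counts after edgeR's TMM scaling of the gene entries. The levels of different elements cannot be compared, because the counts are sums over unknown numbers of copies and lengths. WT replicate 2 stood apart from the other libraries: a chi-square of the counts, divided by the number of genes, was 57.0 and 68.3 between it and the other WT libraries, against 2.24 to 25.2 for the 22 other pairs of replicates. It also had the lowest SINE level of all 24 libraries, so each comparison with WT was repeated without it. Since these are bulk samples, fewer cells of a type and less RNA per cell cannot be told apart.

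The targeted genes were looked at first. Setdb1, the Eset1 gene, was at 63.7, 58.3 and 59.1 CPM in WT and at 39.3, 43.1 and 39.8 CPM in E1. It fell in all 7 mutant conditions against WT (edgeR quasi-likelihood test, largest adjusted p 0.00261), by 0.57 on the log2 scale in E1 and by 1.19 in E1E2 G9Gl. In the uninduced E2 libraries it was at 50.7, 40.2 and 55.2 CPM, and in E1E2 at 50.0, 46.9 and 49.6 CPM. The E2 and E1E2 libraries overlapped in Setdb1 counts, so this count does not check the 4-OHT label within that clone. Setdb2 fell by 1.36 in E2 and by 1.43 in E1E2, Ehmt2 by 1.69 and Ehmt1 by 1.40 in E1E2 G9Gl, and Suv39h1 by 1.14 in E1 S1S2 and by 1.73 in 6KO1. Suv39h2 rose by 0.76 in E1 S1S2 and was at 0.14 in 6KO1. A frameshift need not lower the RNA, and the sum over the exons of a gene does not show the mutation itself.

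The first question was whether SINE RNA as a class changed when H3K9 methyltransferases were lost. The SINE class total was 49167, 35253 and 47515 CPM in the WT libraries. The mutant means were 0.944 to 1.09 times the WT mean, and each mutant range overlapped the WT range (two-sided exact permutation tests, p between 0.6 and 1, smallest possible p 0.1). Without WT replicate 2 the ratios were 0.859 to 0.992, with exact p between 0.1 and 0.9, and the smallest p of this design is also 0.1. The 6KO2 libraries, between 40678 and 42306 CPM, then lay below both WT libraries. Among the stepwise comparisons, 6KO2 was at 0.897 times the E1E2 G9Gl mean and 6KO1 at 1.08 times the 6KO2 mean, without overlap of the libraries in either case (exact p = 0.1 for each). With all WT libraries in, no mutant separated from WT in the class total.

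**Figure D1:**
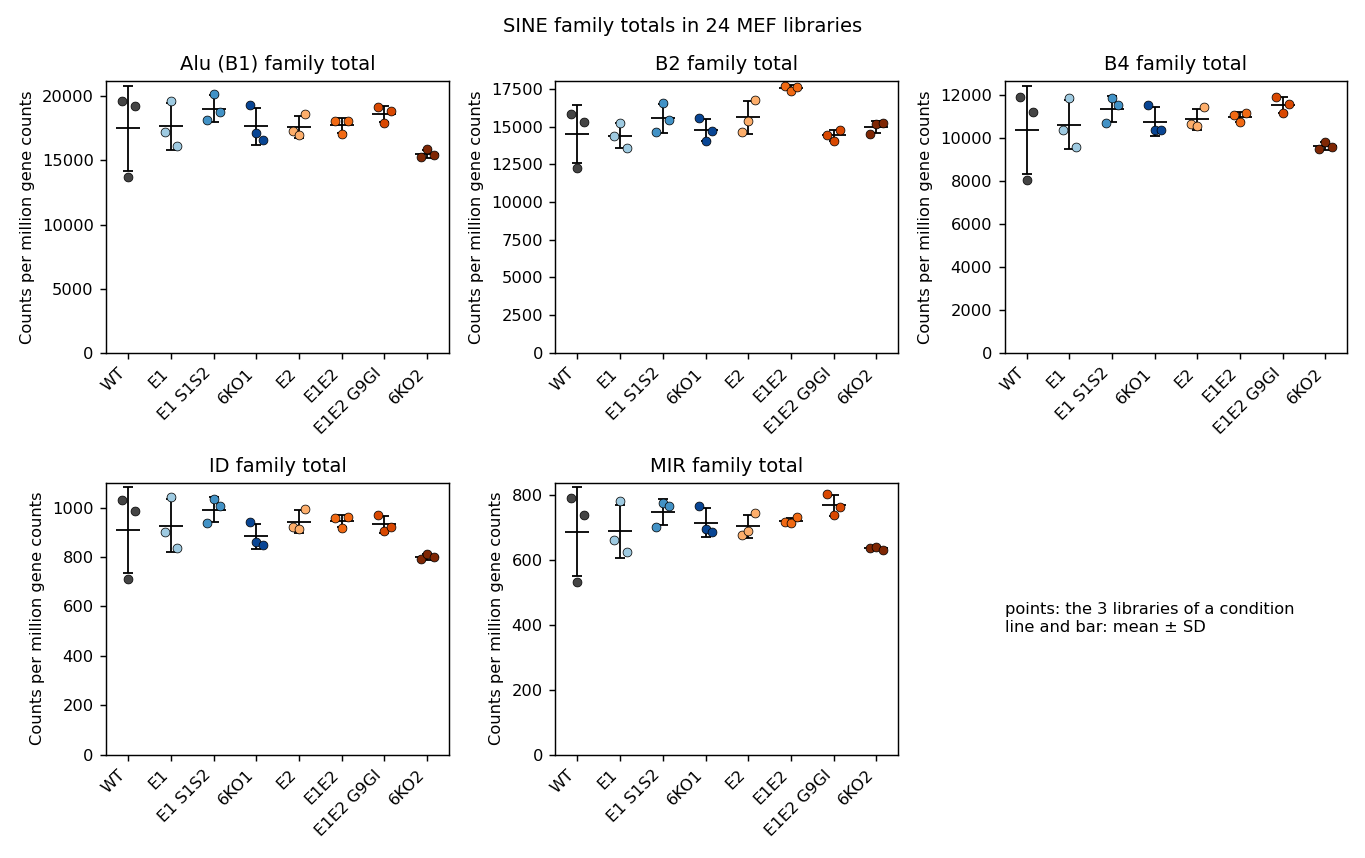
Summed levels of the 5 largest SINE families (y axis, CPM) in the 8 conditions (x axis). Points are libraries, and the line and bar give the mean ± SD (n = 3). In WT, replicate 2 is the lowest point of every family, and the B2 total of E1E2 (17585 ± 168 CPM) lies above all WT libraries.

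The families were tested next. Against WT, the totals of Alu, B2, B4, ID and MIR differed by -0.18 to 0.28 on the log2 scale, and 0 of these 5 families passed an adjusted p of 0.05 in any mutant. The largest of these values was B2 in E1E2, at 0.28 ± 0.09 (SE, edgeR adjusted p = 0.0512). B2 was at 15861, 12282 and 15326 CPM in WT and at 17708, 17394 and 17653 CPM in E1E2. All 3 E1E2 libraries were higher than all WT libraries, and the adjusted p missed the threshold. Over all 9 SINE families tested, the number past an adjusted p of 0.05 was 0 for E1, E1 S1S2, E2, E1E2 and 6KO2. At an unadjusted p under 0.05 there were 0 families in E1, E1 S1S2 and E2 and 1 in each of E1E2 and 6KO2, while DESeq2 with adjusted p gave 1 in E1E2 and 0 in the other 4. In 6KO1 1 family, tRNA-Deu, was lower, and in E1E2 G9Gl 1 family, tRNA-RTE, was higher, each made of a single element described below. For comparison, the share of all 58 repeat families past the same threshold was 5.17% for E1 and 12.1% for E1 S1S2. It was 41.4% for 6KO1 and 32.8% for 6KO2, and 10.3% for E2, 6.90% for E1E2 and 50.0% for E1E2 G9Gl. The ERVK family of endogenous retroviruses rose by 3.36 (6KO1), 2.74 (E1E2 G9Gl) and 2.42 (6KO2), and L1, the LINE family whose proteins copy SINEs, rose by 1.03, 1.42 and 0.69.

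Element by element, few SINEs passed the test against WT when all 24 libraries were fitted. An element was called at an adjusted p of at most 0.05 over all 1216 repeat elements tested, and a stricter rule also asked for a fold change of at least 2 with an adjusted p of at most 0.01. In E1, edgeR called 0 of 37 SINE elements while 11.7% of all repeat elements were called, and the SINE count was also 0 at an unadjusted p under 0.05 and with DESeq2. A single SINE element passed in E1 S1S2, against 26.0% of all elements, and 1 in E2, against 18.3%. The lines with all 6 genes mutated gave 2 in 6KO1 (64.4% of all) and 4 in 6KO2 (49.9%). The count was 2 in E1E2 (22.0%) and also 2 in E1E2 G9Gl (70.4%). In every mutant the share of SINE elements called, at most 10.8%, lay below that of all elements. Under the stricter rule, 1 SINE element passed in 6KO1, where 35.3% of all elements did. The AmnSINE2 call behind it was lost without WT replicate 1, WT replicate 3 or 6KO1 replicate 3 and without TMM factors. The count was 0 in the other 6 mutants by both edgeR and DESeq2, with 0 to 6 SINE elements at an unadjusted p under 0.05 whatever their fold, where the shares over all elements were 4.85% (E1), 7.15% (E1 S1S2), 7.15% (E2), 7.07% (E1E2), 43.4% (E1E2 G9Gl) and 24.4% (6KO2). The median log2 fold change of the 37 SINE elements was 0.02 in 6KO1 and 0.10 in E1E2 G9Gl, where the medians over all repeat elements were 0.56 and 0.78. All elements called against WT by edgeR were younger B2 elements (B2_Mm1a, B2_Mm1t), MIR elements (MIR1_Amn, MIR3) or single elements of very low counts (AmnSINE2, MamSINE1).

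WT replicate 2 carried much of this picture in 6KO2. Without it, 33 of 37 SINE elements were called in 6KO2, 2 higher and 31 lower, with a median of -0.30, where 51.6% of all repeat elements were called and 14.7% were called lower. The 2 higher elements were B2_Mm1a and B2_Mm1t. The Alu, B4, ID and MIR totals were then lower in 6KO2 by log2 differences of -0.33, -0.26, -0.33 and -0.27 (edgeR adjusted p = 0.00242, 0.0078, 0.00117 and 0.0078), whereas B2 was at -0.06 (adjusted p = 0.449). Of all repeat families, 59.3% were called in that fit and 42.4% were called lower, with a median of -0.22. The SINE element count without this library was 8 in 6KO1, all lower (9.02% of all elements were called lower), and 5 in E1E2 G9Gl, of which 4 were lower (6.50% called lower). For E1 it was 0 (8.78% of all repeat elements called), for E2 1 higher element (14.5%) and for E1E2 2 higher elements (14.7%). In E1 S1S2 it was 1 lower element, where 16.1% of all elements were called and 3.66% called lower. MIR1_Amn, the higher element called there with all libraries, had lost its call. Other WT libraries also moved the count in E1E2 G9Gl, to 9 without WT replicate 1 and 8 without WT replicate 3. Those counts of 9 and 8 take both directions together, with no share of all elements beside them. The counts also depend on what libraries are scaled to. With factors from the repeat counts, which hold the retroviral and LINE families named above, the class total was 0.666 times WT in 6KO1, 0.590 times in E1E2 G9Gl and 0.753 times in 6KO2, and 37, 36 and 35 of the 37 SINE elements were called. With old-repeat scaling 11, 29 and 14 were called. These counts take both directions together and stand without the share of all elements under the same scaling. They therefore do not set SINEs apart from other repeats.

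**Figure D2:**
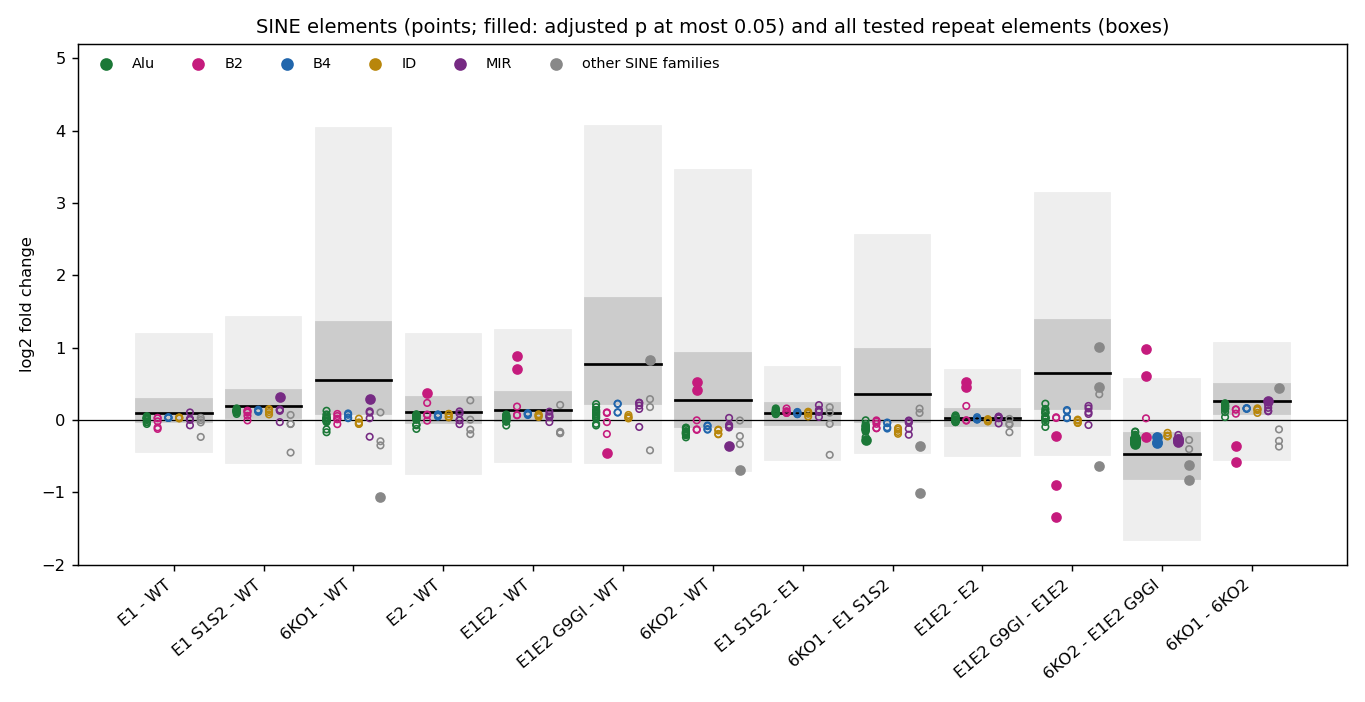
Log2 fold changes (y axis) of the 37 SINE elements (points, filled where the adjusted p is at most 0.05) in each comparison (x axis), over all 1216 tested repeat elements (light boxes, 5th to 95th percentile; dark boxes, 25th to 75th percentile; black line, median). SINE points gather near 0 in 6KO1 and E1E2 G9Gl, where the medians of all elements are 0.56 and 0.78, and the B2_Mm1a and B2_Mm1t points leave the cluster in the second series.

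The B1 elements of the Alu family gave no call against WT with all libraries fitted. The 3 mouse-specific elements B1_Mm, B1_Mus1 and B1_Mus2 had a median log2 fold change of 0.03 in 6KO1 and -0.18 in 6KO2, the 4 murid B1_Mur elements of 0.00 and -0.18, and the 7 tested B1F and proto-B1 elements of -0.01 and -0.16. Over the 98 pairs of these 14 elements and a mutant, edgeR called 0 against WT, 1 had an unadjusted p under 0.05, and DESeq2 called 1. B1_Mus1, the B1 element with the most counts, was at 3125, 2254 and 3242 CPM in WT, at 3292, 2875 and 2649 CPM in 6KO1, and at 2506, 2636 and 2493 CPM in 6KO2. The library values overlapped between WT and both 6KO lines. In 6KO2 this rests on WT replicate 2, without which the Alu total was called lower, at -0.33 (edgeR adjusted p = 0.00242). Of all repeat families 42.4% were called lower in that fit. From E1E2 G9Gl to 6KO2, a contrast between mutants given further on, 9 of the 14 B1 elements were called lower. These were 3 in each of the 3 age groups. Of all repeat elements 60.4% were called lower there, and the falls depend on the scaling.

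The 4 B4 elements and the 4 ID elements also gave no call against WT with all libraries fitted. Their medians against WT lay between -0.10 and 0.17 for B4 and between -0.17 and 0.12 for ID, and over the 56 pairs of these 8 elements and a mutant edgeR called 0, 2 had an unadjusted p under 0.05, and DESeq2 called 2. ID_B1, the B4 element with the most counts, was at 3698, 2512 and 3451 CPM in WT and at 3549, 3188 and 3165 CPM in 6KO1. ID4_, the ID element with the most counts, was at 424, 294 and 408 CPM in WT and at 388, 354 and 343 CPM in 6KO1. The 6KO1 libraries of both elements lay inside the WT range. Without WT replicate 2 the B4 and ID totals were called lower in 6KO2, at -0.26 and -0.33 (edgeR adjusted p = 0.0078 and 0.00117). Of all repeat families 42.4% were called lower in that fit. From E1E2 G9Gl to 6KO2, 3 of the 4 B4 elements and none of the 4 ID elements were called, all 3 lower. Of all repeat elements 60.4% were called lower in that comparison, and the falls depend on the scaling.

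Within the B2 family the elements did not move together. B2_Mm1a and B2_Mm1t, 2 of the young B2 subfamilies of the mouse, rose in E1E2 and 6KO2 against WT, whereas the older B2 relatives B3 and B3A gave 0 calls against WT over 14 pairs of element and mutant by edgeR and by DESeq2, and 0 at an unadjusted p under 0.05. B2_Mm1a was at 1701, 1828 and 1640 CPM in WT and at 1680, 1429 and 1642 CPM in E1. It was at 1770, 2386 and 2516 CPM in E2 and at 3165, 3277 and 3128 CPM in E1E2. The E1E2 libraries lay above every other library of the series, and 2 of the 3 E2 libraries lay between WT and E1E2 while the other was inside the WT range. In E1E2 G9Gl B2_Mm1a was at 1175, 1258 and 1346 CPM, below every WT library, and in 6KO2 at 2334, 2451 and 2660 CPM, above every WT library. Both conditions of the first series, E1 S1S2 with 1639, 1787 and 1728 CPM and 6KO1 with 1633, 1482 and 1858 CPM, overlapped WT.

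Against WT, B2_Mm1a rose by 0.89 ± 0.11 (SE) on the log2 scale in E1E2 (edgeR adjusted p = 9.7e-09), by 0.53 ± 0.11 in 6KO2 (adjusted p = 7.83e-05) and by 0.37 ± 0.11 in E2 (adjusted p = 0.0137). It fell by 0.45 in E1E2 G9Gl (SE 0.11, adjusted p = 0.000335). Its differences in E1, E1 S1S2 and 6KO1 were -0.12, -0.00 and -0.06 and did not pass. The call in E2 rests on single libraries, since it was lost without E2 replicate 2 (0.31), E2 replicate 3 (0.27) or WT replicate 3 (0.33), and also when only the 6 libraries compared were fitted (0.40). When the factors came from the repeat counts themselves, the E2 and 6KO2 values dropped to 0.20 and 0.15 and lost the call, while the E1E2 value was 0.70 and kept it.

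B2_Mm1t followed the same order at smaller size. It was at 1279, 1178 and 1233 CPM in WT and at 1207, 1519 and 1624 CPM in E2. Its E1E2 libraries had 1987, 2035 and 1971 CPM, those of E1E2 G9Gl 1017, 1073 and 1140 CPM, and those of 6KO2 1565, 1656 and 1709 CPM. The E1E2 and 6KO2 libraries lay above all WT libraries and the E1E2 G9Gl libraries below them. It rose by 0.70 ± 0.10 in E1E2 (edgeR adjusted p = 5.52e-07) and by 0.42 ± 0.10 in 6KO2 (adjusted p = 0.000656). Its values of 0.24 in E2 and -0.19 in E1E2 G9Gl did not pass. With factors from the repeat counts the 6KO2 value dropped to 0.06 and lost the call.

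The third B2_Mm element, B2_Mm2, differed less. It was at 3574, 2929 and 3586 CPM in WT and at 3871, 3776 and 3840 CPM in E1E2, a log2 difference of 0.19 ± 0.10 that did not pass (edgeR adjusted p = 0.178). B3, the B2-family element with the most counts, was at 6222, 4235 and 5925 CPM in WT and at 5809, 5530 and 5824 CPM in E1E2, a difference of 0.07 ± 0.11. The E1E2 libraries of B3 lay inside the WT range. The share of B2 counts on B2_Mm1a therefore ran from a mean of 8.74% in E1E2 G9Gl to 18.1% in E1E2, with 12.1% in WT.

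**Figure D3:**
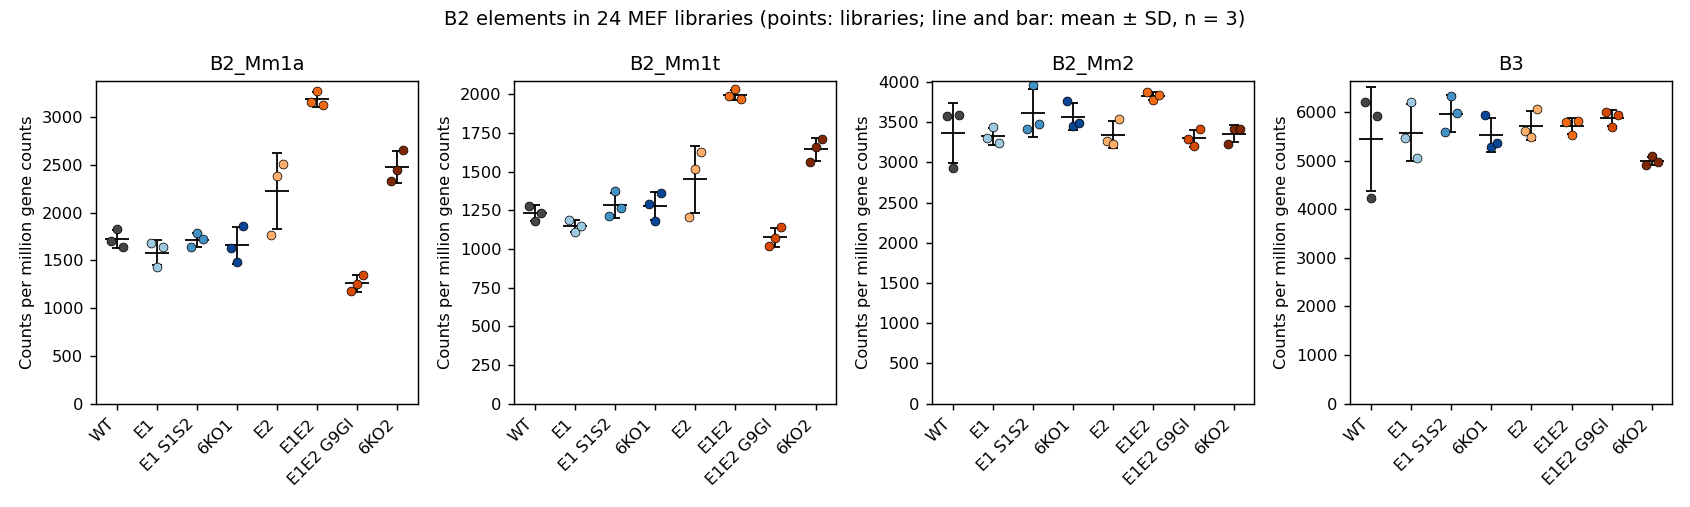
Levels of the B2-family elements (y axis, CPM) in the 8 conditions (x axis), with libraries as points and the mean ± SD (n = 3) as line and bar. B2_Mm1a and B2_Mm1t are highest in E1E2 (3190 ± 77.5 and 1998 ± 33.0 CPM) and lowest in E1E2 G9Gl (1260 ± 85.4 and 1076 ± 61.7 CPM), whereas the E1E2 libraries of B3 lie inside the WT range.

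Because a ratio within a library needs no scaling between libraries, the summed counts of B2_Mm1a and B2_Mm1t were also divided by all other SINE counts of the same library, a ratio chosen after the values were seen. It was 6.45%, 9.32% and 6.44% in WT, with the high value in WT replicate 2. It was 11.9%, 12.8% and 11.7% in E1E2 and 10.6%, 10.8% and 11.7% in 6KO2. E1E2 G9Gl had the lowest ratios, 4.86%, 5.49% and 5.60%. These 3 conditions did not overlap WT (two-sided exact permutation tests, p = 0.1 for each, the smallest possible, adjusted p = 0.186 over 13 comparisons). The means were 1.66 times WT in E1E2, 1.51 times in 6KO2 and 0.728 times in E1E2 G9Gl. E1, E1 S1S2, 6KO1 and E2 overlapped WT, with means between 6.64% and 8.72% against 7.40%.

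The planned B2 to Alu ratio showed the same order. Its B2 counts include B2_Mm1a and B2_Mm1t, so it is not independent of the ratio above. The B2 to Alu count ratio was 0.809, 0.896 and 0.795 in WT, 0.979, 1.02 and 0.978 in E1E2, 0.949, 0.953 and 0.986 in 6KO2 and 0.755, 0.781 and 0.785 in E1E2 G9Gl. On the log2 scale the mean difference from WT was 0.25 in E1E2, 0.21 in 6KO2 and -0.11 in E1E2 G9Gl, without overlap of the libraries (exact permutation p = 0.1 each, adjusted p = 0.255 over 28 ratios). The B4, ID and MIR to Alu ratios differed from WT by at most 0.07 in size, some of them without overlap (exact permutation p = 0.1).

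**Figure D4:**
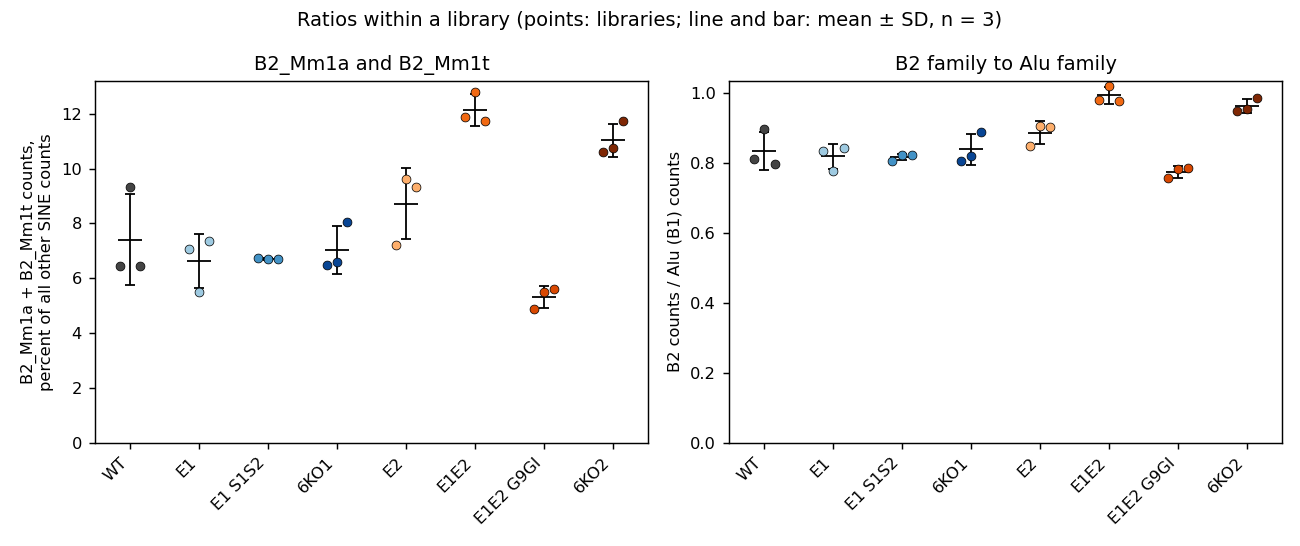
Left, B2_Mm1a and B2_Mm1t counts as percent of all other SINE counts of the library; right, B2 counts divided by Alu (B1) counts (y axes), in the 8 conditions (x axes), with libraries as points and the mean ± SD (n = 3) as line and bar. E1E2 (mean 12.1% and 0.992) and 6KO2 (11.0% and 0.963) lie above all WT libraries and E1E2 G9Gl (5.32% and 0.774) below them.

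The stepwise comparisons set no WT library against a mutant and place the steps of the second series side by side. The spread behind their edgeR p-values still came from all 24 libraries, WT replicate 2 among them. With only the 6 libraries compared, more SINE elements were called at several of these steps, as given under the processing. Counts from such alternatives, or with a library left out, stand here and below without the share of all elements in the same fit. In the Eset2-mutant clone, E1E2 against E2 compares libraries with and without 4-OHT. The ERVK family was already higher than WT in the uninduced E2 libraries, by a log2 difference of 0.98 (edgeR adjusted p = 2.67e-09). It was higher by 1.14 in E1 and by 0.995 in E1E2, and E1E2 and E2 differed by 0.01 (adjusted p = 0.989). How far Eset1 function differed between E2 and E1E2 was not tested. From E2 to E1E2, B2_Mm1a and B2_Mm1t rose, by 0.52 ± 0.11 and 0.46 ± 0.10 on the log2 scale (edgeR adjusted p = 0.00157 and 0.00284). These were the 2 SINE elements called among 37, where 3.54% of all repeat elements were called. Both calls were lost without E2 replicate 1, the lowest E2 library, with values of 0.38 and 0.35. Pairing the libraries by replicate number on these 6 libraries gave 0.53 and 0.46 with both calls kept. For families the count was 0 among SINEs and 0% over all families, with 0 SINE families at an unadjusted p under 0.05 by edgeR and 0 by DESeq2. At the stricter rule 0 SINE elements passed by edgeR and by DESeq2, with 3 at an unadjusted p under 0.05, against 0.822% of all elements.

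Adding the G9a and Glp mutations, E1E2 G9Gl against E1E2, went with a fall of B2_Mm1a and B2_Mm1t. B2_Mm1a fell by 1.34 (SE 0.11, edgeR adjusted p = 1.21e-14) and B2_Mm1t by 0.89 (SE 0.10, adjusted p = 2.51e-10). B2_Mm2 was called at -0.21 (SE 0.10, adjusted p = 0.0456), but the call was lost when any 1 of the 6 libraries was left out, without TMM factors, without the filter on low counts and with the replicate block. The B2 family total fell by 0.29 (SE 0.09, adjusted p = 0.0125), a call lost without TMM factors (-0.25) and without E1E2 G9Gl replicate 2 (-0.27). In all, 6 SINE elements were called, where 66.5% of all elements were, the others being MamSINE1, AmnSINE1 and AmnSINE2. Without E1E2 replicate 2 or E1E2 G9Gl replicate 1 the count was 3. Of the 6 elements 2 passed the stricter rule, B2_Mm1a and MamSINE1, where 34.5% of all elements did. SINE families gave 3 calls (46.6% of all families), B2 lower and the families of MamSINE1 and AmnSINE1 higher. The young B2 elements thus went down in the comparison in which the median repeat element was at 0.64.

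Adding the Suv39h1 and Suv39h2 mutations to that clone, 6KO2 against E1E2 G9Gl, went with a rise of the same 2 elements, by 0.98 ± 0.11 for B2_Mm1a and 0.61 ± 0.10 for B2_Mm1t (edgeR adjusted p = 3.16e-10 and 2.06e-06). In this comparison 21 of 37 SINE elements were called, 2 higher and 19 lower, where 65.7% of all elements were called and 60.4% were called lower. The lower elements came from Alu, B4, MIR, B3 and the small families and 17 of them fell by 0.23 to 0.32. B1_Mus1, for example, went from 3234, 2989 and 3229 CPM to 2506, 2636 and 2493 CPM, a fall of 0.31 (SE 0.11, adjusted p = 0.0134). SINE families gave 5 calls, all lower (70.7% of all families), among them Alu at -0.26, B4 at -0.26 and MIR at -0.27. Leaving out 1 library brought the count of 21 elements down to 8 (E1E2 G9Gl replicate 1), 10 (6KO2 replicate 1 or 3) and 11 (E1E2 G9Gl replicate 3 or 6KO2 replicate 2). No share of all elements in the same fits stands beside these counts. The falls also depend on the scaling. When libraries were scaled to the old non-SINE repeats or to all repeat counts, 17 of the 19 elements changed sign, and the Alu total was at 0.08 and 0.24. The rise of B2_Mm1a and B2_Mm1t kept its direction and its call in both. By the stricter rule 0 SINE elements passed with edgeR and with DESeq2, while 25 had an unadjusted p under 0.05, against 18.8% of all elements.

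In the first series neither young B2 element was called at any step. E1 S1S2 against E1 gave 0 SINE calls among elements (9.46% of all) by edgeR and by DESeq2, with 1 element at an unadjusted p under 0.05. Among SINE families the count was 0 (5.17% of all families) by both tools, with 1 family at an unadjusted p under 0.05. The stricter rule also gave 0 with both tools (2.63% of all elements). 6KO1 against E1 S1S2, which adds the Eset2, G9a and Glp mutations, gave 3 lower SINE elements (53.2% of all), AmnSINE2, MamSINE1 and FAM, a relative of the B1 elements at -0.28 (edgeR adjusted p = 0.0382). The FAM call was lost without TMM factors and in 5 of the 6 fits that left out a library, all but the one without 6KO1 replicate 1, and the count was 1 without E1 S1S2 replicate 3, 6KO1 replicate 2 or 6KO1 replicate 3. AmnSINE2 passed the stricter rule (24.3% of all), and 2 families were lower (24.1% of all), tRNA-Deu and tRNA-RTE. B2_Mm1a differed by -0.05 ± 0.11 in this step.

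The 2 lines with all 6 genes mutated differed from each other in these elements. In 6KO1 against 6KO2, B2_Mm1a was lower by a log2 difference of -0.58 ± 0.11 and B2_Mm1t by -0.36 ± 0.10 (edgeR adjusted p = 4.35e-05 and 0.00465), without overlap of the libraries. The B2_Mm1t call was lost without 6KO1 replicate 2 (-0.31) and without TMM factors (-0.20). Of the 37 SINE elements 4 were called (40.4% of all), the others being MIR1_Amn and AmnSINE1, both higher. The MIR1_Amn call, at 0.27 (edgeR adjusted p = 0.0497), was lost when any 1 of the 6 libraries was left out, with DESeq2, without the filter, with the replicate block and with old-repeat scaling, and its value was -0.02 with factors from the repeat counts. The AmnSINE1 call, at 0.44 (adjusted p = 0.0339), was lost with factors from the repeat counts and without 6KO1 replicate 1, 6KO2 replicate 1 or 6KO2 replicate 2. Without 6KO1 replicate 1 or 2 or 6KO2 replicate 1 or 2 the count was 2. The stricter rule gave 0 by edgeR and by DESeq2, with 5 at an unadjusted p under 0.05 (6.33% of all elements). SINE families gave 0 calls by both tools, with 2 at an unadjusted p under 0.05 (13.8% of all families called).

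Markers of other cell types were summed beside these results. The list of 14 markers of leukocyte, endothelial, epithelial, pluripotent, neural and muscle cells summed to 33.1 to 38.0 CPM in WT, 132 to 141 CPM in E1E2, 74.5 to 79.6 CPM in E1E2 G9Gl and 138 to 155 CPM in 6KO2. It summed to 69.9 to 79.8 CPM in E1, 54.2 to 60.7 CPM in E1 S1S2, 60.5 to 65.2 CPM in 6KO1 and 69.2 to 76.0 CPM in E2. Most of the sum in E1E2 and 6KO2 was Tubb3, a neuronal tubulin that many cultured cells also express, at 120 to 130 CPM and 127 to 143 CPM against 26.7 to 32.6 CPM in WT; it was picked out after its values were seen. The macrophage marker Adgre1 was at 0 in all 24 libraries. The 11 fibroblast markers summed to 6864 to 8587 CPM in WT, 5690 to 6038 CPM in E1E2, 8929 to 9629 CPM in E1E2 G9Gl, 5722 to 5855 CPM in 6KO2 and 3893 to 4360 CPM in 6KO1. From E2 to 6KO2 the sum of the other-cell markers rose and fell at the same steps as the young B2 elements. The fibroblast sum went the opposite way at those steps. In E1E2 G9Gl the other-cell sum lay above WT, whereas B2_Mm1a lay below every WT library. The part of these markers in the result was not tested.

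The 3 differences of differences asked whether the same step had the same effect in both series. The effect of 4-OHT in the Eset2-mutant clone minus its effect in the WT line was 0.64 ± 0.16 for B2_Mm1a and 0.56 ± 0.15 for B2_Mm1t (edgeR adjusted p = 0.00329 and 0.00675). These were the only 2 of 37 SINE elements called, where 8.72% of all elements were. SINE families gave 0 calls by edgeR and DESeq2, and 0 at an unadjusted p under 0.05, where 6.90% of all families were called. Among those was ERVK, at -1.12 (edgeR adjusted p = 1.61e-07), a family already higher than WT in the uninduced E2 libraries. The step that adds G9a and Glp mutations differed between the series by -1.29 ± 0.16 for B2_Mm1a, -0.89 ± 0.15 for B2_Mm1t and 1.37 ± 0.20 for MamSINE1 (adjusted p = 6.29e-09, 3.78e-06 and 2.46e-07). These were the 3 SINE elements called, where 34.7% of all elements and 31.0% of all families were. In the first series this step also adds the Eset2 mutation. The step that adds Suv39h1 and Suv39h2 mutations differed between the series by 0.86 ± 0.16 for B2_Mm1a and 0.45 ± 0.15 for B2_Mm1t (adjusted p = 1.17e-05 and 0.0083), the latter lost without TMM factors (0.34). In that test 19 SINE elements were called, 2 higher and 17 lower, where 58.6% of all elements were, and 4 SINE families, all lower, where 50.0% of all families were. Leaving out 1 library moved the count of 19 between 5 (without E1 replicate 3) and 33 (without E1 replicate 2), and it was 12 or lower without any 1 of 8 libraries. No share of all elements in the same fits stands beside these counts, so they do not set SINEs apart. Of the 17 lower elements, 16 changed sign with factors from the repeat counts and 6 with old-repeat scaling. The young B2 elements were the ones called in all 3 tests, and each of these tests also compares different clones.

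MamSINE1, a tRNA-derived element of low abundance that mammals share, was the SINE element called higher in E1E2 G9Gl against WT. It was at 7.11, 5.01 and 6.86 CPM in WT, at 6.11, 5.07 and 5.47 CPM in E1E2, at 10.9, 11.6 and 11.1 CPM in E1E2 G9Gl and between 5.78 and 7.07 CPM in 6KO2. The E1E2 G9Gl libraries lay above all other libraries of the series. It rose by 0.83 ± 0.14 against WT and by 1.01 ± 0.14 against E1E2 (edgeR adjusted p = 5.83e-07 and 1.38e-08) and fell by 0.83 from E1E2 G9Gl to 6KO2 (adjusted p = 1.16e-06). With factors from the repeat counts the difference from WT turned to -0.01. In 6KO1 it was at 5.55, 5.02 and 4.86 CPM and fell by 0.36 from E1 S1S2 (adjusted p = 0.0259), a call lost without E1 S1S2 replicate 3, 6KO1 replicate 2 or 6KO1 replicate 3 and without TMM factors.

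AmnSINE2, with a mean count of 33.0 per library, gave the call of the stricter rule in 6KO1. It was at 1.68, 1.05 and 1.78 CPM in WT and at 0.659, 1.03 and 0.425 CPM in 6KO1. It fell by 1.06 (SE 0.30, edgeR adjusted p = 0.00164), and the 6KO1 libraries lay below the WT libraries, with a narrow gap between 1.03 and 1.05 CPM. It also fell by 0.69 in 6KO2 (adjusted p = 0.0456), a call lost under 8 of 13 alternatives, and by 1.01 from E1 S1S2 to 6KO1. From E1E2 to E1E2 G9Gl it was at -0.63 (adjusted p = 0.0476), a call lost with DESeq2, without TMM factors and without any 1 of 4 libraries. AmnSINE1, the other low element of this kind, rose by 0.45 from E1E2 to E1E2 G9Gl, a call lost without E1E2 replicate 2 or E1E2 G9Gl replicate 1, and fell by 0.62 from there to 6KO2. These values were -0.24 and -0.11 with factors from the repeat counts, with neither called, and old-repeat scaling also lost both calls. LFSINE_Vert, at a mean of 2.80 CPM in WT, was not called in any comparison.

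Among the MIR elements, which are ancient and shared by mammals, 2 were called against WT. MIR1_Amn was at 18.9, 14.0 and 18.2 CPM in WT, 21.1, 20.5 and 21.9 CPM in E1 S1S2 and 22.2, 19.4 and 21.2 CPM in 6KO1. It rose by 0.31 ± 0.11 in E1 S1S2 and by 0.30 ± 0.11 in 6KO1 (edgeR adjusted p = 0.0297 and 0.0166). Both calls were lost without WT replicate 2, the low library, at 0.19 and 0.17, and also with only the 6 libraries compared. The call in E1 S1S2 was lost without its own replicate 1 or 3, and that in 6KO1 without its own replicate 1 or 3. MIR1_Amn with factors from the repeat counts was at 0.11 in E1 S1S2, no longer called, and at -0.32 in 6KO1, called lower (adjusted p = 0.000121). MIR3 was at 94.5, 63.4 and 86.8 CPM in WT and at 62.0, 67.1 and 62.6 CPM in 6KO2, and fell by 0.35 (SE 0.11, adjusted p = 0.00699), a call lost without WT replicate 1 (-0.23) and with only the 6 libraries compared (-0.34, adjusted p = 0.129). WT replicate 2 lay inside the 6KO2 range. MIR itself, the element of the family with the most counts, was at 328, 218 and 303 CPM in WT and at 327, 299 and 298 CPM in 6KO1 and was not called against WT.

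The SINE levels were then set beside those of other old repeats that are no SINEs, the L2 and CR1 LINEs and the hAT-Charlie and TcMar-Tigger DNA transposons, a comparison added after the data were seen. The SINE total was 13.2 to 16.2 times the total of these repeats in the 24 libraries. In WT replicate 2 the ratio was 15.3, inside the range of the other libraries, so its low SINE level came with equally low counts of the old repeats. The ratio in E1E2 G9Gl, 13.4 ± 0.230 (SD, n = 3), was 0.885 times that in WT, and the ratio in E1E2 was 1.05 times that in WT, both without overlap (exact permutation p = 0.1 each). In E1E2 G9Gl the old repeats themselves were at 1.19 times WT. The other mutants had ratios of 0.979 to 1.02 times WT.

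**Figure D5:**
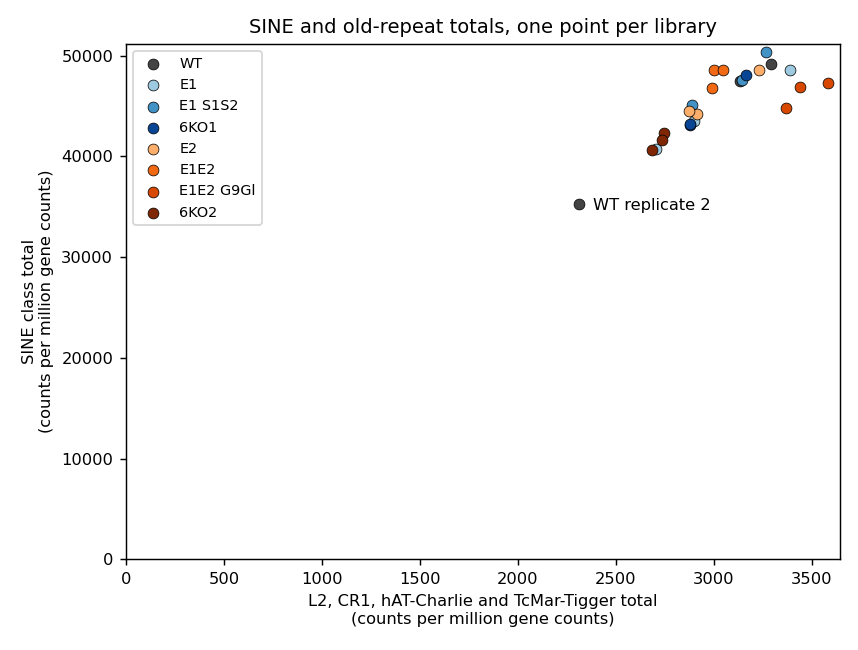
SINE class total (y axis) against the summed level of the L2, CR1, hAT-Charlie and TcMar-Tigger families (x axis), both in CPM, with 1 point per library. WT replicate 2 lies lowest (35253 CPM on the y axis) near the line of the others, and the 3 E1E2 G9Gl libraries lie to the right of it.

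Genes around SINE RNA were counted from lists. The 24 genes of the RNA polymerase III machinery, which transcribes SINEs from their own promoters, gave 5 higher and 17 lower in 6KO1 and 3 higher and 18 lower in E1E2 G9Gl, with medians of -0.42 and -0.45. Over all 18513 genes 74.0% were called in 6KO1, 39.7% higher and 34.3% lower. In E1E2 G9Gl 68.3% were called, 35.3% higher and 33.0% lower. The medians over all genes were 0.06 and 0.01. For E1 the counts higher and lower were 1 and 3 (20.9% of all genes called), for E1 S1S2 2 and 15 (52.7%), for E2 3 and 11 (38.2%), for E1E2 2 and 10 (44.4%) and for 6KO2 4 and 15 (65.0%). In 6KO1 Polr3g, a subunit of an alternative form of the polymerase, fell by 1.68, Polr3b, a large catalytic subunit, by 1.01 and Polr3f by 0.75. In E1E2, where young B2 counts were highest, these 3 genes fell by 0.41, 0.39 and 0.16.

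Of 9 genes tested for other RNAs made by RNA polymerase III or for SINE ancestors, 2 were higher and 3 lower in 6KO1, and 4 were higher in 6KO2. Over all genes 39.7% were called higher and 34.3% lower in 6KO1, and 34.9% higher and 30.1% lower in 6KO2. Rn7sk, the RNA that restrains the elongation factor P-TEFb, rose by 0.50 (6KO1), 0.44 (E1E2 G9Gl) and 0.63 (6KO2) and was at 0.27 in E1E2 (edgeR adjusted p = 0.16). Rmrp, the RNA of RNase MRP, rose by 0.45 in 6KO2, and Rpph1, the RNA of RNase P, fell by 0.46 in E1 S1S2 and by 0.35 in E1E2 G9Gl. The Y RNA Rny1 fell by 1.53 and the vault RNA Vaultrc5 by 1.55 in 6KO1, whereas the Y RNA Rny3 fell by 0.86 there and rose by 1.27 in 6KO2.

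Of 12 genes for proteins that bind or process SINE RNA, 1 was higher and 7 were lower in 6KO1. Over all genes, for this list and those that follow, 39.7% were called higher in 6KO1 and 34.3% lower, 74.0% in either direction. Adar, which edits double-stranded RNA and is induced by interferon, rose by 1.69 in 6KO1, 1.16 in E1E2 G9Gl and 0.79 in E1E2. Hnrnpk fell by 0.84 in 6KO1. Of 13 chromatin factors linked to SINEs, 1 was higher and 7 were lower in 6KO1. Among the lower were the HP1 proteins Cbx5 at -0.61 and Cbx1 at -0.68 and the insulator protein Ctcf at -0.39. Of the 4 nuclear-retained long RNAs tested, 3 were higher and 1 was lower in 6KO1, the higher ones being Malat1 by 1.06, Neat1 by 0.65 and Tug1 by 0.34. Fibroblast markers gave 1 higher and 10 lower of 11 in 6KO1, with Thy1 at -8.87, Pdgfra at -5.36 and Twist1 at -4.21. The median of this list was -0.96, and 5 of the 11 passed the stricter rule, all lower. Of the 14 markers of other cell types 8 were tested in 6KO1, of which 5 were higher and 2 lower. The epithelial keratin Krt8 rose by 4.07, the macrophage marker Cd68 by 2.32, the leukocyte marker Ptprc by 6.98 and the endothelial Cdh5 and Pecam1 by 5.45 and 2.65. These rises start from low levels, since all 14 markers together summed to 33.1 to 38.0 CPM in WT, most of it Tubb3. In 6KO1 they summed to 60.5 to 65.2 CPM. The epithelial marker Epcam fell by 2.76 and Tubb3 by 0.44, and the pluripotency factor Pou5f1 was at -0.42 (edgeR adjusted p = 0.45). In that line the SINE class total was 1.02 times WT.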

How the data were processed

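RNA-seq libraries of 24 MEF samples, 3 in each of 8 conditions, were analysed from a table of whole-number counts. The authors deposited raw counts per gene and per repeat element, made with cutadapt 1.8.1, STAR 2.5.2b, the GRCm38 genome and TEtranscripts, which shares multi-mapping reads among repeat copies. The kit was stranded, while the strand setting of the counting is not given in the sources used here. A sum over copies cannot show which copy a read came from. 1 malformed row was left out, and 0 columns lacked a sample.

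Groups were taken from the labels. The elements, lists and comparisons were chosen with earlier results of these data known. Counts were fitted over all 24 libraries with edgeR 4.0.16 (quasi-likelihood test; R 4.3.3), with library sizes from the gene entries, TMM factors (0.906 to 1.10) and filterByExpr. Total counts of 24736800 to 37419100 per library set the precision. P-values were adjusted by Benjamini-Hochberg over 1216 repeat elements, 58 families or 18513 genes. Standard errors are the fold change over the root of the F statistic. CPM stands for counts per 1000000 gene counts. Totals and ratios were compared by two-sided exact permutation tests, 20 splits for 3 against 3. On simulated counts of 6KO1 against WT with 1217 repeat elements, 63.2%, 84.8% and 97.0% of elements changed by 0.5, 1 and 2 on the log2 scale were called at an adjusted p of 0.05. These rates are over all repeat elements, not SINEs alone. Simulated counts were drawn independently, so no library had many elements low together, as WT replicate 2 had for SINEs.

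Same-numbered libraries deviated together in all 3 numbers for E1E2 against E2 alone (correlations 0.236, 0.481 and 0.178), which share a clone, so this comparison was also fitted with the replicate number as a block. Replicate 2 of E2 and of E1E2 also had the highest levels of the rRNA repeat family, 30167 and 27156 CPM. The next highest library, 6KO2 replicate 3, had 20661 CPM. The part of this in the correlations was not tested. Alternatives were DESeq2 1.42.0, no TMM factors, factors from repeat counts, no filter, the block, only the 6 libraries compared, family totals without their largest element, and each library left out. Scaling to old repeats was added after the data were seen. The text names the element with the most counts of each large family, every SINE element called in a comparison with WT or between steps, and by list the genes with the smallest adjusted p in 6KO1 against WT, the methyltransferase genes, and the RNA polymerase III RNAs with a mean of at least 100 normalised counts. Exceptions are named where they occur, and some items that the rule names are not reported here.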

Additional observations from a re-analysis of the deposited data

Results flagged for a closer look

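The results listed here were picked because the effect of the same step differed between the 2 series in a test of the difference itself (edgeR, interaction term, adjusted p of at most 0.05). Each of these tests compares different clones, and the cause was not tested.

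For 4-OHT, the effect in the Eset2-mutant clone minus that in the WT line was 0.64 for B2_Mm1a and 0.56 for B2_Mm1t on the log2 scale. Without E2 replicate 1 the B2_Mm1t difference was 0.45 and no longer called. In the uninduced E2 libraries of this clone the ERVK family was already higher than WT, by 0.98.

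For the G9a and Glp mutations, the effect in E1E2 minus that in E1 S1S2 was -1.29 for B2_Mm1a, -0.89 for B2_Mm1t, and 1.37 for MamSINE1, which is also the tRNA-RTE family total at 1.37. In the E1 S1S2 arm the Eset2 mutation comes in at the same step.

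For the Suv39h1 and Suv39h2 mutations, the effect in E1E2 G9Gl minus that in E1 was 0.86 for B2_Mm1a and 0.45 for B2_Mm1t. It was lower among the Alu elements, at -0.46 for B1_Mm, -0.42 for B1_Mus1, -0.44 for B1_Mus2, -0.36 for B1_Mur2, -0.42 for B1_Mur4, -0.36 for B1F, -0.40 for B1F1 and -0.37 for B1F2, and for the Alu total at -0.37. B4 was at -0.39, B4A at -0.38 and RSINE1 at -0.35. Among MIR elements it was -0.40 for MIR, -0.41 for MIR1_Amn, -0.40 for MIRb and -0.44 for MIRc, with the MIR total at -0.39. MamSINE1 and its tRNA-RTE total were at -0.94, and AmnSINE1 and its 5S-Deu-L2 total at -0.57. Of the 17 lower elements 16 changed sign with factors from the repeat counts and 6 with old-repeat scaling, whereas the B2_Mm1a and B2_Mm1t differences stayed positive under both.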

How the results depend on the processing

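B2_Mm1a against WT in E1E2, 6KO2 and E1E2 G9Gl, and at each step of the second series, kept its direction under every alternative, and its call except in 6KO2 with factors from the repeat counts and in E1E2 against E2 without E2 replicate 1. Counts of other SINEs depended on what the libraries were scaled to and on WT replicate 2. In parentheses stands the mutant set against WT, or both conditions. The difference terms are those of the 3 tests between series. Counts of elements and families under an alternative take both directions together. No shares over all repeats stand beside them, so they do not set SINEs apart. The causes were not tested beyond what each alternative leaves out.

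Without TMM factors the elements past the stricter rule were 0 (6KO1) and 0 (6KO1 against E1 S1S2). The elements called were then 5 (6KO1), 1 (6KO1 against E1 S1S2) and 27 (6KO1 against 6KO2). The families called were then 1 (6KO1 against E1 S1S2) and 5 (6KO1 against 6KO2). The log2 values that changed sign were B2 family total 0.00292 (E1), 0.0369 (E1E2 G9Gl), 0.0126 (6KO1 against E1 S1S2) and 0.146 (6KO1 against 6KO2). With factors from the repeat counts the elements called were 37 (6KO1), 35 (6KO2), 4 (E1), 16 (E1 S1S2), 13 (E2), 24 (E1E2), 36 (E1E2 G9Gl), 36 (6KO1 against E1 S1S2), 35 (E1E2 G9Gl against E1E2), 34 (6KO2 against E1E2 G9Gl), 29 (6KO1 against 6KO2), 4 (the 4-OHT difference), 30 (the Suv39h difference) and 26 (the G9a/Glp difference). Families called numbered 9 (6KO1), 9 (6KO2), 5 (E1), 7 (E1 S1S2), 3 (E2), 6 (E1E2), 8 (E1E2 G9Gl), 1 (E1 S1S2 against E1), 8 (6KO1 against E1 S1S2), 8 (E1E2 G9Gl against E1E2), 6 (6KO1 against 6KO2), 2 (the 4-OHT difference) and 6 (the G9a/Glp difference). The elements past the stricter rule were then 3 (E1E2 G9Gl), 1 (6KO2) and 2 (6KO2 against E1E2 G9Gl). The class total ratios were then 0.666 (6KO1), 0.590 (E1E2 G9Gl) and 0.753 (6KO2). Changes of sign were seen for B2 family total -0.114 (E1 S1S2), -0.593 (6KO1), -0.0218 (E2), -0.291 (6KO2) and 0.557 (the Suv39h difference), MIR1_Amn -0.318 (6KO1), -0.0189 (6KO1 against 6KO2) and 0.195 (the Suv39h difference), MamSINE1 -0.00890 (E1E2 G9Gl), AmnSINE1 -0.245 (E1E2 G9Gl against E1E2) and 0.0392 (the Suv39h difference), MIR3 0.252 (6KO2 against E1E2 G9Gl), B1_Mus1 0.200 (6KO2 against E1E2 G9Gl) and 0.192 (the Suv39h difference), B3 0.273 (6KO2 against E1E2 G9Gl), MIR 0.224 (6KO2 against E1E2 G9Gl) and 0.215 (the Suv39h difference), Alu family total 0.244 (6KO2 against E1E2 G9Gl) and 0.239 (the Suv39h difference), B4 family total 0.245 (6KO2 against E1E2 G9Gl), MIR family total 0.234 (6KO2 against E1E2 G9Gl) and 0.218 (the Suv39h difference). With DESeq2 the elements called were 2 (E2), 8 (E1E2 G9Gl) and 30 (the Suv39h difference). The count of families was 1 (E1E2) and 1 (6KO1 against E1 S1S2). On the log2 scale the sign changed for the B2 family total 0.0249 (E1E2 G9Gl). Without the filter on low counts the families called were 1 (6KO1 against E1 S1S2). With the replicate block the families called were 1 (6KO1 against E1 S1S2). With old-repeat scaling, added after the data were seen, the elements called were 1 (E1), 4 (E1 S1S2), 11 (6KO1), 2 (E2), 29 (E1E2 G9Gl), 14 (6KO2), 1 (E1 S1S2 against E1), 17 (6KO1 against E1 S1S2), 30 (E1E2 G9Gl against E1E2), 7 (6KO1 against 6KO2), 8 (the Suv39h difference) and 20 (the G9a/Glp difference). The families called were then 3 (E1 S1S2), 3 (6KO1), 1 (E1E2), 7 (E1E2 G9Gl), 3 (6KO2), 2 (E1 S1S2 against E1), 1 (E1E2 against E2), 8 (E1E2 G9Gl against E1E2), 3 (6KO1 against 6KO2), 1 (the 4-OHT difference) and 5 (the G9a/Glp difference). The elements past the stricter rule were then 0 (6KO1 against E1 S1S2) and 1 (6KO2 against E1E2 G9Gl). The log2 values that changed sign were B2 family total -0.0109 (6KO1) and 0.341 (the Suv39h difference), MIR3 0.0906 (6KO2 against E1E2 G9Gl), B1_Mus1 0.0391 (6KO2 against E1E2 G9Gl), B3 0.112 (6KO2 against E1E2 G9Gl), MIR 0.0632 (6KO2 against E1E2 G9Gl), Alu family total 0.0831 (6KO2 against E1E2 G9Gl) and 0.0226 (the Suv39h difference), B4 family total 0.084 (6KO2 against E1E2 G9Gl), MIR family total 0.073 (6KO2 against E1E2 G9Gl) and 0.0012 (the Suv39h difference). Without the largest element of each family the families called were 1 (E1E2) and 2 (the G9a/Glp difference). The sign changed for the B2 family total at 0.102 (the Suv39h difference), and the B2 to Alu difference was 0.356 (E1E2). With only the 6 libraries compared the elements called were 0 (E1 S1S2), 1 (6KO1), 0 (E2), 2 (6KO2), 9 (6KO1 against E1 S1S2), 18 (E1E2 G9Gl against E1E2), 33 (6KO2 against E1E2 G9Gl) and 18 (6KO1 against 6KO2). Families called numbered 2 (6KO1 against 6KO2). On the log2 scale the sign changed for the B2 family total 0.00798 (E1E2 G9Gl). Beside these sign changes, calls of single elements were lost with the sign kept. Of 47 called values, 8 lost the call without TMM factors, among them B2_Mm1t in 6KO1 against 6KO2 and in the Suv39h difference and MamSINE1 in 6KO1 against E1 S1S2. With factors from the repeat counts 7 did, with DESeq2 3, without the filter 3, with the block 3 and with old-repeat scaling 9, among them B2_Mm1a in E2 and MIR1_Amn in 6KO1 against 6KO2. With only the 6 libraries compared 5 of 35 did, MIR1_Amn in E1 S1S2 and 6KO1, B2_Mm1a in E2 and MIR3 and AmnSINE2 in 6KO2.

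Leaving out each library in turn gave these ranges. The B2 family total ran over -0.115 to 0.0607 (E1), -0.115 to 0.061 (E1E2 G9Gl), -0.00291 to 0.173 (E1 S1S2), -0.0803 to 0.0952 (6KO1), -0.0623 to 0.113 (6KO2), -0.0502 to 0.0165 (6KO1 against 6KO2). Elements past the stricter rule ran over 0 to 1 (6KO1), 0 to 1 (6KO1 against E1 S1S2), 1 to 2 (E1E2 G9Gl against E1E2), 0 to 1 (6KO2 against E1E2 G9Gl). Families called ran over 0 to 1 (E1E2), 1 to 3 (E1E2 G9Gl), 0 to 1 (E1 S1S2), 0 to 4 (6KO1), 0 to 6 (6KO2), 1 to 6 (the Suv39h difference), 0 to 1 (6KO1 against E1 S1S2), 2 to 6 (6KO2 against E1E2 G9Gl). Elements called ran over 2 to 9 (E1E2 G9Gl), 2 to 33 (6KO2), 1 to 8 (6KO1), 0 to 2 (E2), 5 to 33 (the Suv39h difference), 0 to 1 (E1 S1S2 against E1), 0 to 1 (E1 S1S2), 1 to 4 (6KO1 against E1 S1S2), 2 to 3 (6KO1 against 6KO2), 0 to 2 (E1E2 against E2), 1 to 2 (the 4-OHT difference), 3 to 5 (E1E2 G9Gl against E1E2), 8 to 16 (6KO2 against E1E2 G9Gl). The 33 calls in 6KO2 came without WT replicate 2 and the 33 of the Suv39h difference without E1 replicate 2. The 9 calls in E1E2 G9Gl came without WT replicate 1, and 8 came without WT replicate 3. The call of B2_Mm1a and B2_Mm1t in E1E2 against E2 was lost without E2 replicate 1.

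The replicate block, fitted over all 24 libraries, kept B2_Mm1a and B2_Mm1t called in E1E2 against E2 at 0.53 and 0.47. In the other comparisons the samples share only a number, with 7 of 39 same-number correlations over 0.1. With the block MIR1_Amn in 6KO1 against 6KO2, at 0.27, and the Alu total in the Suv39h difference, at -0.37, were no longer called, nor were B2_Mm2 in E1E2 G9Gl against E1E2, at -0.22, and B3 in 6KO2 against E1E2 G9Gl, at -0.23. Family values below the threshold changed sign in 50 of 74 cases with factors from the repeat counts and in 28 of 74 with old-repeat scaling. With 3 libraries a group, exact tests cannot go below 0.1, and elements with few counts, such as AmnSINE2, have wide errors.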
